A study of Mus musculus with 4 samples.

Results

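The m6A peaks described here lay in the 5′ UTR or around the start codon of protein-coding transcripts in mouse Kit+ foetal liver cells, and are called 5′ peaks. A peak was taken as a 5′ peak when its summit, the position of highest enrichment, lay in the 5′ UTR or within 200 nt of the start codon on the spliced transcript, and not within 200 nt of the stop codon. Replicate 1 held 1966 5′ peaks among 10829 summits that could be placed on the chosen transcript of exactly 1 protein-coding gene, out of 15635 peaks in the list. Replicate 2 held 1978 among 10464 placed summits, out of 14872 peaks. The 5′ peaks were therefore 18.2% and 18.9% of the placed summits, or 18.5% ± 0.529 (SD, n = 2). This choice used the summit positions of the peaks called by the authors. Beyond that calling, no fold enrichment, p-value or q-value entered it. Because transcripts shorter than the windows allow both codons to be close, 33 summits of replicate 1 and 28 of replicate 2 near the start codon or in the 5′ UTR were counted at the stop codon and left out.

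The series profiled m6A in C57BL/6 mouse cells by meRIP-seq, in which fragmented RNA is captured with an antibody to m6A and sequenced. It has 4 samples, namely m6A IP replicates 1 and 2 and input replicates 1 and 2, and the peak list of each IP replicate was analyzed. Per the study's methods the cells were c-Kit–enriched Ythdf2 CTL cells, which are Ythdf2 fl/fl without Cre and carry GFP after the start codon of Ythdf2, so that the m6A reader YTHDF2 was made as a GFP fusion in every sample. The labels give total RNA for the IP samples and polyA RNA for the input samples, and the age of the embryos and the number of animals pooled are not given in the sources used here. All samples were of this 1 genotype and untreated as far as the labels say, so there is no contrast between conditions, and comparisons are between classes of peaks within each replicate. Peaks of 1 library share its source, so the intervals below cover counting error only. Ythdf2 itself carried no 5′ peak in either list.

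m6A is placed on nascent mRNA by the METTL3–METTL14 complex at the DRACH consensus (an AC after a purine, with any base but C in front of that purine and any base but G behind), of which GGAC is the best-known core, and is usually densest near stop codons and in long exons. The 5′ UTR is the stretch that the scanning ribosome crosses before it reaches the start codon. The first transcribed base next to the mRNA cap, when it is an adenosine, can carry a related mark, m6Am, which the antibodies used for m6A can also bind. A peak list does not separate these marks.

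Stretches from 11 genes named below are shown because each holds a GGAC within 25 nt of the summit in both replicates, and together they cover the positions at which 5′ peaks were found. Each is the spliced transcript sequence, 5′ to 3′, of the GENCODE M21 transcript on GRCm38. The core GGAC is in capitals, with 12 bases on each side.
Cltb (chr13:54611241-54611268, minus strand): gaagatggctgaGGACttcggcttcttc
Irf1 (chr11:53770066-53770093, plus strand): ttcgtcgaggtaGGACgtgctttcacag
Ep300 (chr15:81585471-81585498, plus strand): gtggggcaagcgGGACgcccggctgagt
Rpl34 (chr3:130730228-130730255, minus strand): gtcaggcgggcgGGACgcccttggggtc
Dnajb1 (chr8:83608328-83608355, plus strand): ggccatgggcaaGGACtactatcagacg
Nop14 (chr5:34660014-34660041, minus strand): ggaaagccaagcGGACtggggcgcggag
Tpgs1 (chr10:79669541-79669568, plus strand): tgagagcgaggaGGACttcctacggcag
Meis1 (chr11:19018736-19018763, minus strand): gattaggaattaGGACtgattcaaggaa
Eif6 (chr2:155826576-155826603, minus strand): cgcagggcgagaGGACttggggcaggag
Tet3 (chr6:83455090-83455117, minus strand): cagcaggagactGGACagtagtttaacc
Klf9 (chr19:23141895-23141922, plus strand): cggtgacccgggGGACacctggaaggat
All of these lie in exons. In Cltb and Dnajb1 the start codon is within the printed bases, and the A of GGAC lies 10 nt downstream of its first base. In Cltb that A is 38 nt from the first base of the transcript, in Ep300 88 nt, in Tet3 481 nt and in Klf9 683 nt. In Irf1, Ep300 and Rpl34 the core is not a DRACH match, because of the base that follows it. A GGAC near a summit is a description of the sequence and does not show which base was modified.

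By the rule all of these summits lay in the 5′ UTR or near the start codon, so the following counts only describe their positions there. The start codon window held 1588 5′ peaks in replicate 1 and 1611 in replicate 2, and the 5′ UTR before it held 378 and 367. Within the window, 794 summits lay upstream of the codon and 794 from the codon on in replicate 1, and 802 and 809 in replicate 2. Counting the whole 5′ UTR, 59.6% and 59.1% of 5′ peaks lay upstream of the start codon, with a median position of 36.5 nt upstream in replicate 1 and 33 nt upstream in replicate 2. The most distant summit lay 1385 nt upstream in replicate 1 and 1186 nt in replicate 2.

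Measured from the annotated transcript start, the median summit of the 5′ peaks was at 159 nt in replicate 1 and 157 nt in replicate 2. A summit lay within 150 nt of that start for 944 5′ peaks (48.0%) and 955 (48.3%), and within 50 nt for 198 and 185. Densities are given per 100 kb of sequence that met the position rule for a 5′ peak, in transcripts with a placed peak. Bases in exons of other genes were not taken out, although no summit could be placed there. At 50 to 99 nt from the transcript start the density was 97.8 and 102 summits, and at 100 to 149 nt it was 102 and 104. There were 53.8 and 51.7 at 150 to 199 nt and 40.2 and 44.5 at 200 to 249 nt. The first 50 nt held 52.9 and 49.4 per 100 kb, a lower density than in the next 100 nt in both replicates. No peak was narrower than 200 bp, so a summit cannot be read as the position of a modified base.

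Around the start codon the density was flatter. It was between 64.7 and 74.6 summits per 100 kb in every 50-nt bin from 200 nt upstream to 99 nt downstream in replicate 1, and between 61.5 and 78.3 in replicate 2. It then fell to 35.0 and 39.96 at 150 to 199 nt downstream. Because many 5′ UTRs are short, the start of the transcript and the start codon are often close, so the density was also counted apart for the sequence at least 150 nt from the transcript start. There it was 54.5 and 53.6 per 100 kb at 200 to 101 nt upstream of the start codon, 49.4 and 52.8 over the last 100 nt of the 5′ UTR, 52.5 and 54.0 over the first 100 nt from the start codon on, and 38.3 and 39.4 over the next 100 nt. Within 150 nt of the transcript start, the corresponding densities were 85.5 and 86.4, 103 and 101, 112 and 113, and 54.0 and 36.0, the last bin resting on 12 and 8 summits. The density was thus higher close to the transcript start at each of the first 3 distances from the start codon in both replicates.

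**Figure D1:**
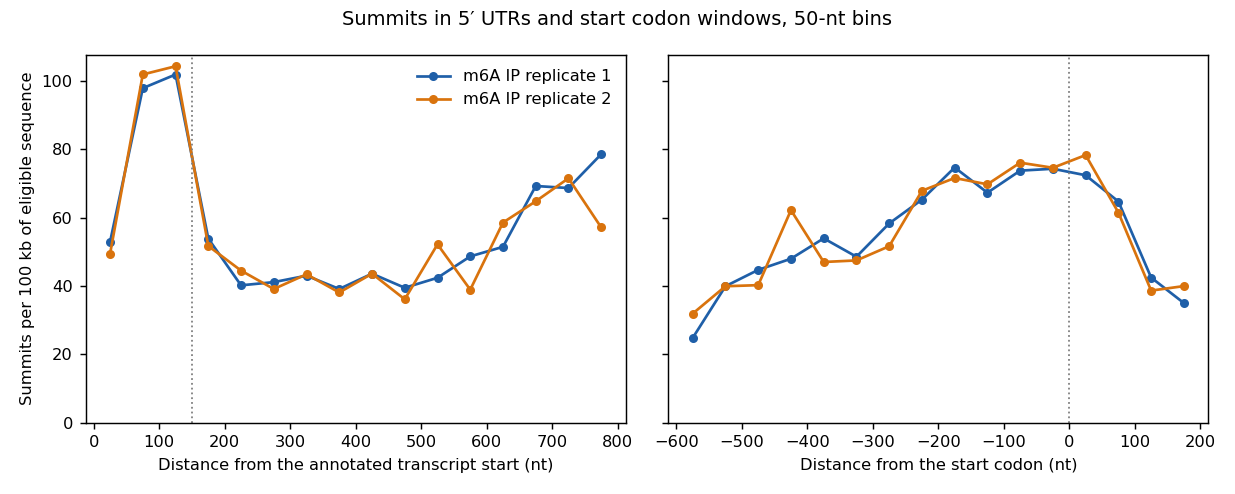
Density of 5′ peak summits in 50-nt bins, in summits per 100 kb of sequence that met the position rule for a 5′ peak, by distance from the annotated transcript start (left, dotted line at 150 nt) and from the start codon (right, dotted line at the codon); lines are the 2 replicates. The density peaks at 50 to 149 nt from the transcript start, between 97.8 and 104, and is flatter around the start codon.

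The 5′ peaks sat in other exons than the rest. The first exon of a spliced transcript held 61.0% of 5′ peaks in replicate 1 and 62.3% in replicate 2, internal exons held 29.7% and 28.9%, last exons 5.75% and 5.26%, and transcripts of 1 exon 3.56% and 3.54%. Of the other placed peaks, 70.3% in each replicate lay in the last exon. The exon was at least 400 nt long for 47.6% and 48.9% of 5′ peaks, against 95.3% and 95.6% of the other placed peaks, and its median length was 382 and 393 nt against 1696 and 1734 nt. Among peaks with a splice junction in the transcript, 25.1% and 22.9% of 5′ peaks lay within 100 nt of one, against 8.20% and 7.66%. The placement rule itself favors early exons, so these values describe where the 5′ peaks were and carry no test.

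The 5′ peaks were narrow and rested on few reads. They spanned a median of 245 and 251 bp in the 2 replicates, against 464 and 481 bp for the other placed peaks. The median 5′ peak had 46 and 47 IP reads at its summit over a background worth 9 and 6.60 control reads, against 79 and 76 IP reads over 22 and 17 control reads. The background was below 2 control reads for 13.8% and 17.7% of 5′ peaks, against 6.14% and 7.61% of the others. Median −log10 q was 15.4 and 16.2, against 17.0 and 16.2.

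Fold enrichment, the ratio of IP signal to local background at the summit with 1 added to each, was higher at 5′ peaks. Its median was 5.20 in replicate 1 and 5.71 in replicate 2, against 3.89 and 4.02 for the other placed peaks, a mean difference of medians of 1.50. Within the coding sequence the medians were 4.19 and 4.33, at the stop codon 3.48 and 3.64, and in the 3′ UTR 3.90 and 4.03. The 5′ peaks within 150 nt of the transcript start had medians of 5.89 and 6.48, and those further away 4.51 and 4.77. The ratio is larger where the background is thin, and at like background the difference shrank. With 2 to 5 control reads, the medians were 6.90 for 5′ peaks and 6.45 for the others in replicate 1, and 7.30 and 6.91 in replicate 2. With 20 to 50 control reads they were 3.45 and 3.45, and 3.22 and 3.11. Over 4 such bands the mean difference was 0.138 and 0.129.

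**Figure D2:**
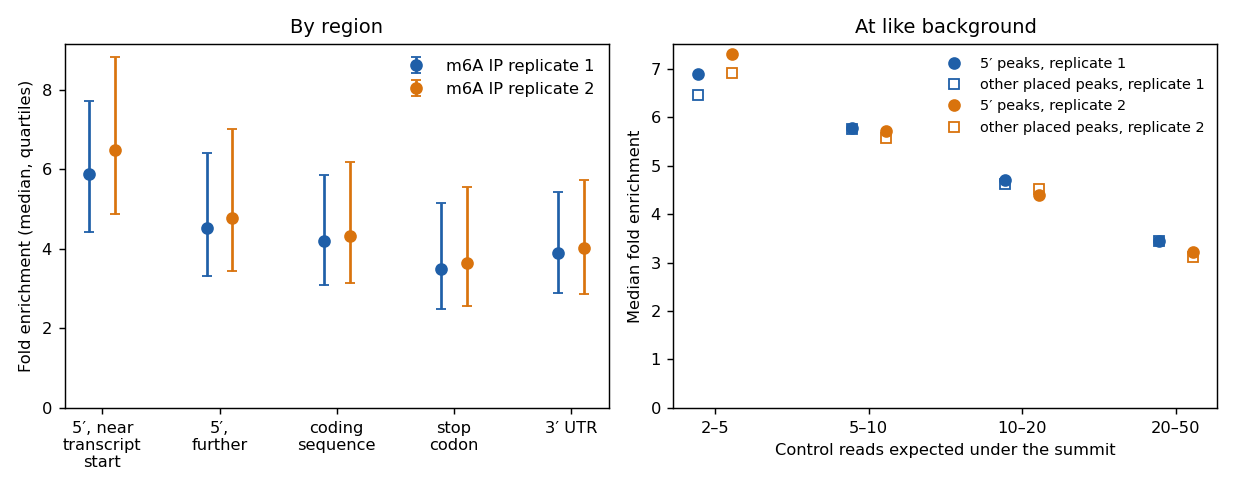
Fold enrichment by region (left, points are medians and bars the quartiles over peaks) and median fold enrichment of 5′ peaks (filled circles) and other placed peaks (open squares) in 4 bands of background (right, in control reads); colors are the 2 replicates. The 5′ peaks are highest by region, with medians of 5.89 and 6.48 near the transcript start, while circles and squares lie close together within each band.

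The sequence around the summits differed with the distance from the transcript start. GGAC lay within 50 nt of 50.3% of 5′ summits in replicate 1 (exact Clopper-Pearson 95% interval 48.0 to 52.5) and of 51.6% in replicate 2 (49.4 to 53.8), against 57.4% and 57.1% of the other placed summits. The difference was -7.10 percentage points in replicate 1 (95% interval by Newcombe's method -9.53 to -4.66) and -5.44 in replicate 2 (-7.88 to -3.00). Among 5′ peaks within 150 nt of the transcript start the share was 44.5% and 46.4%, and among those further away 55.6% and 56.5%. That difference was -11.1 points (-15.4 to -6.67) and -10.1 points (-14.5 to -5.71). With GGAC counted within 25 nt of the summit it was smaller, -4.51 points (-8.55 to -0.441) and -5.77 points (-9.80 to -1.69), and for GGACT within 50 nt it was -5.77 points (-9.07 to -2.45) and -6.02 points (-9.40 to -2.61).

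The sequence of these regions sets how often a motif is met without any peak. All positions that met the position rule were counted in the transcripts that carried a 5′ peak, bases in exons of other genes included. GGAC lay within 50 nt of 42.5% of them in replicate 1 and 42.9% in replicate 2, so the summits exceeded their own regions 1.18-fold and 1.2020-fold. The same ratio was 1.08 in both replicates within 150 nt of the transcript start and 1.26 and 1.25 further away. It was 1.33 and 1.34 at stop codon peaks, 1.52 in both replicates within the coding sequence and 2.04 and 2.02 in the 3′ UTR, each against the same kind of region in the transcripts that carried the peak. The lowest of these ratios was thus that of the summits close to the transcript start. The sequence within 50 nt of 5′ summits was also richer in G and C, with a median of 60.4% and 61.4% against 52.5% in both replicates.

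GGACT, a full consensus form, led all 18 DRACH forms in ratio to the positions that met the position rule in genes with a 5′ peak. Its shares were 17.1% and 18.4% at 5′ summits against 24.5% in both replicates at the others. Its ratio to those positions was 1.33 and 1.43. The form ending in A after the same core followed at 1.25 and 1.26, the form ending in C was at 1.16 and 1.196, and AAACA was lowest at 0.848 and 0.751. Any DRACH form lay within 50 nt of 80.0% and 79.9% of 5′ summits, close to the 79.4% and 78.9% of positions of the same regions. Of the other placed summits 96.3% and 96.5% had one, a difference of -16.3 points (-18.1 to -14.5) and -16.5 points (-18.4 to -14.8). The ratio of summits to their own regions was 1.01 in both replicates. It was 1.06 in both at stop codon peaks, 1.08 and 1.09 within the coding sequence and 1.11 in both in the 3′ UTR. Motifs were looked for in the transcript's own strand, and every GGACT also counts as a GGAC and as a DRACH form.

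**Figure D3:**
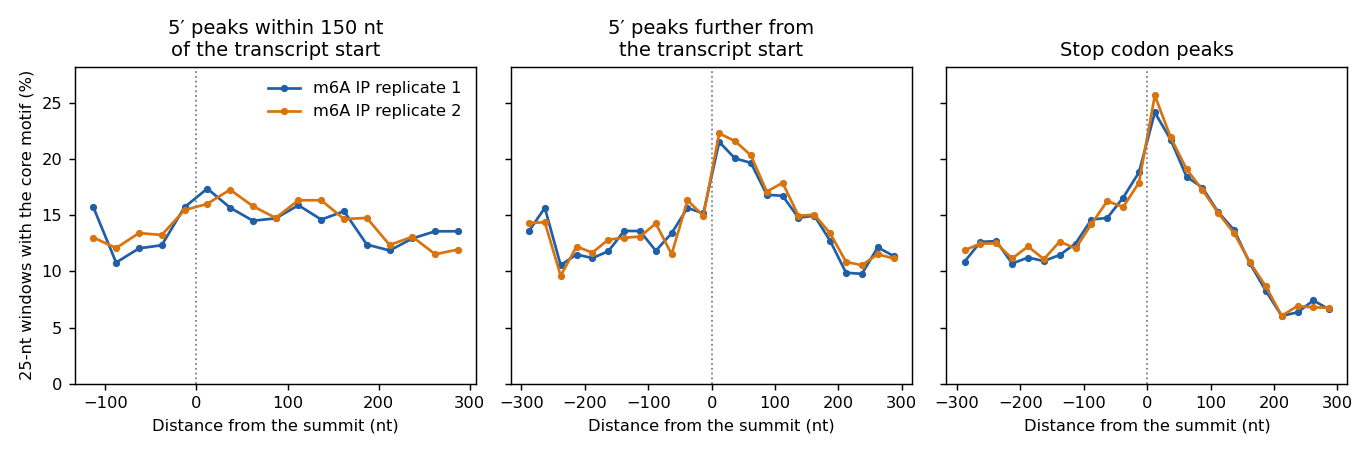
Share of 25-nt windows of the spliced transcript that hold the A of GGAC, by distance from the summit, for 5′ peaks within 150 nt of the transcript start (left), 5′ peaks further away (middle) and stop codon peaks (right), with lines for the 2 replicates and windows shown where at least 100 peaks have them. At 0 to 24 nt downstream of the summit the shares are 17.4% and 16.02%, 21.5% and 22.3%, and 24.1% and 25.7%.

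The share of windows with GGAC was highest just downstream of the summit in the 5′ peaks away from the transcript start. It was 21.5% and 22.3% at 0 to 24 nt downstream, and fell to 9.88% and 10.9% at 200 to 224 nt. Close to the transcript start it varied less, from 17.4% and 16.02% at 0 to 24 nt downstream to 11.9% and 12.4% at 200 to 224 nt. The annotated first base was A for 29.9% (27.0 to 32.9) and 28.5% (25.6 to 31.5) of 5′ peaks within 150 nt of it. Within 50 nt it was A for 31.8% (25.4 to 38.8) and 31.4% (24.7 to 38.6). For 5′ peaks further than 150 nt away the shares were 24.4% (21.8 to 27.1) and 25.4% (22.8 to 28.2). The share was 28.7% of all protein-coding genes, and 23.2% of the 4248 genes with only other peaks in both replicates. These differences were not tested. The annotated start need not be the one used in these cells, and which starts were used was not tested.

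Fewer 5′ peaks than other peaks were found again in the other replicate. A peak of the other list overlapped 74.6% of 5′ peaks in replicate 1 and 74.3% in replicate 2, against 87.9% and 90.8% of the other placed peaks. The difference was -13.4 points (-15.5 to -11.4) and -16.5 points (-18.5 to -14.5). It was -5.25 and -8.37 points when a peak counted as found again only with summits within 100 bp of each other. Close to the transcript start the shares were 67.9% and 68.0%, and further away 80.7% and 80.3%, a difference of -12.8 points (-16.6 to -8.97) and -12.3 points (-16.1 to -8.45). The 5′ peaks close to the transcript start were also narrower, with a median width of 223 and 231 bp against 310.5 and 307 bp. The part of width in that difference was not tested. The difference from other peaks was present in each of 4 bands of background, the smallest being -5.15 points (-8.80 to -2.04) in replicate 1 and -5.74 points (-9.80 to -2.64) in replicate 2. At like width it was smaller, and in no band of width did it exceed counting error in both replicates. Among peaks of 300 to 399 bp it was -0.299 points (-5.12 to 3.73) in replicate 1 and -3.09 points (-7.62 to 0.687) in replicate 2. Among peaks of 400 bp or more it was -2.43 points (-5.03 to -0.709) and -1.08 points (-3.19 to 0.170). Of the 5′ peaks narrower than 300 bp, 66.03% and 64.0% were shared, against 64.0% and 70.5% of other peaks of that width, which gave 2.003 points (-1.32 to 5.28) in replicate 1 and -6.41 points (-9.75 to -3.08) in replicate 2. Such narrow peaks were 66.2% and 64.3% of 5′ peaks and 23.3% and 22.4% of the others.

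Where both replicates had the peak, its strength was similar in each. For 1310 pairs of 5′ peaks that overlapped each other and no other peak, fold enrichment correlated across pairs with a Spearman rho of 0.718, the log2 ratio of replicate 2 to replicate 1 had a median of 0.08 and an SD of 0.53, and 91.8% were within 2-fold. Their summits lay a median of 11 nt apart. For 2504 pairs at stop codons rho was 0.874 and the SD of the log2 ratio was 0.41. Pairs share their libraries and differ in read depth, so these coefficients are descriptions. In 90 further pairs the summit met the rule in only 1 replicate.

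**Figure D4:**
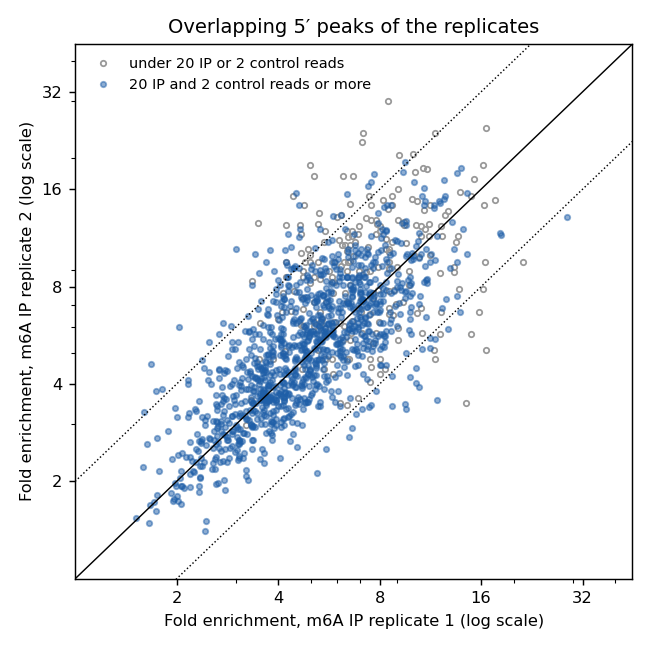
Fold enrichment of 1310 overlapping pairs of 5′ peaks in replicate 1 (x axis, log scale) and replicate 2 (y axis, log scale), 1 point per pair, filled for the 1092 pairs with at least 20 IP reads and 2 control reads in both replicates; the solid line marks equal values and dotted lines a 2-fold difference. Most pairs, 91.8%, lie between the dotted lines.

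The 5′ peaks fell in 1896 genes in replicate 1 and 1900 in replicate 2, with 1 per gene in 96.5% and 96.0% of them and at most 3. A 5′ peak was present in both replicates in 1318 genes, which is 6.03% of all protein-coding genes and 21.3% of the 6196 genes with a placed peak in both. With only peaks of at least 4-fold enrichment there were 842 such genes. The 1318 genes made up 69.5% of replicate 1's genes and 69.4% of replicate 2's. Of the 1318 genes, 529 (40.1%) had no other placed peak in either replicate, 692 (52.5%) had another in both, and 333 (25.3%) had one at the stop codon in both. The 5′ UTR was longer in these genes, with a median of 256 nt against 170 nt in 4248 genes with only other peaks in both replicates and 151 nt in all protein-coding genes. It held an ATG upstream of the start codon in 60.8%, against 52.3% and 49.8%, with 6.82 upstream ATGs per kb of 5′ UTR against 6.47 and 8.33. The exon with the start codon was at least 400 nt long in 50.3%, against 28.6% and 34.7%. A longer 5′ UTR offers more room for a 5′ peak by the rule, so none of these carries a test.

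In genes with both a 5′ peak and a stop codon peak, the 5′ peak usually had the higher ratio. It was higher in 73.8% of 573 genes in replicate 1 and 75.8% of 557 in replicate 2, by a median of 0.58 and 0.72 on the log2 scale. Of the 333 genes with both peaks in both replicates, 215 had the higher value at the 5′ peak in both, 55 at the stop codon in both, and 63 changed order. The background under the 5′ peak was thinner in the same genes, with a median of 7 and 5 control reads against 31.6 and 27. The part of control coverage in the order of the ratios was not tested.

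Across the 1318 genes the strongest 5′ peak of a gene had a median fold enrichment of 5.25 in replicate 1 and 5.71 in replicate 2. The highest ratios among pairs with at least 20 IP reads and 2 control reads in both replicates were in 12 genes, which spanned 12.02 to 28.8 in replicate 1 and 11.7 to 18.7 in replicate 2. In 10 of them the peak was in the first or only exon, and in 7 the summits were within 150 nt of the transcript start in both replicates. Their backgrounds were thin, between 2 and 7.20 control reads.

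Ep300, which encodes a histone acetyltransferase and transcriptional coactivator, had a 5′ peak at 14.6-fold and 15.6-fold, 81 and 92 nt from the start of a 1232-nt 5′ UTR and more than 1 kb upstream of the start codon. It rested on 39 and 48 IP reads with a background of 2 control reads in each replicate, and its GGAC shown above lay 7 nt downstream of the first summit and 4 nt upstream of the second. The gene also had a stop codon peak at 4.12-fold and 3.97-fold, below the 5′ peak in both replicates. Cyb5b, a cytochrome b5 of the outer mitochondrial membrane, had 13.9-fold and 18.7-fold on 86 and 97 IP reads, with summits 40 and 52 nt from the transcript start and no GGAC within 50 nt. Kcnk12, a potassium channel subunit, showed the largest spread, 28.8-fold and 13.2-fold on 78 and 82 IP reads, with a background of 2 and 5 control reads. Its IP reads were nearly equal, so the ratios differed through the background.

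Mtf2, a Polycomb-associated protein, had 14.2-fold and 12.1-fold at 28 and 40 nt from the transcript start. Samhd1, a dNTP hydrolase that restricts retroviruses, had 12.4-fold and 14.9-fold at 102 and 110 nt downstream of the start codon. Tpgs1, a subunit of the tubulin polyglutamylase complex, had 12.5-fold and 17.1-fold at 134 and 136 nt downstream of the start codon, 11 and 9 nt before the GGAC shown above. Mmaa, a mitochondrial protein of cobalamin metabolism, had 18.2-fold and 11.7-fold in its second exon. Of Mtf2, Samhd1, Tpgs1 and Mmaa, only Tpgs1 had a stop codon peak, which was found in replicate 1 only, at 7.71-fold. Also among the 12 were Zrsr1 (13.6-fold and 17.9-fold), Arsg (13.1-fold and 12.7-fold), Zadh2 (12.02-fold and 14.8-fold) and Eif1ax, described with the initiation factors.

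Summits nearest to the start codon, among pairs with the same read support, belonged to Nop14, Rab8b, Alas1, Mri1 and Rab38, and lay within 3 nt of its first base in both replicates. Alas1, the housekeeping enzyme of the first step of heme synthesis, had 3.86-fold and 3.91-fold on 114 IP reads in each replicate, in its second exon. Nop14, a ribosome biogenesis factor, had 6.43-fold and 7.21-fold, with the printed GGAC 20 and 17 nt downstream of the summits. Rab8b and Rab38, small GTPases of vesicle traffic, had 4.92-fold and 5.48-fold, and 7.82-fold and 7.05-fold. The nearest GGAC was beyond 50 nt from the summits of Alas1, Rab8b, Mri1 and Rab38.

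Summits nearest to the transcript start belonged to Cip2a, Hnrnpa2b1, Dis3, Cltb and Dhrs11, at 2 to 18 nt from it. Hnrnpa2b1, an RNA-binding protein proposed as an m6A reader, rested on the most reads of these 5, 128 and 136 IP reads, at 3.77-fold and 3.26-fold. Cip2a, an inhibitor of the phosphatase PP2A, had 9.29-fold and 10.9-fold. Dis3, a catalytic subunit of the RNA exosome, had 6.69-fold and 7.87-fold. Cltb, a clathrin light chain, had 7.21-fold and 7.24-fold, with the printed GGAC 24 and 21 nt downstream.

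The rest of the named genes come from 11 lists of gene families and pathways, and each list is set beside the 6.03% of all protein-coding genes and the 21.3% of genes with a placed peak that had a 5′ peak in both replicates. Genes of translation initiation had a 5′ peak in both replicates in 7 of 45 genes (15.6%), or 38.9% of the 18 with a placed peak in both. Their median fold enrichment was 4.78 and 5.20, against 5.25 and 5.71 over all 1318 genes. Eif1ax, which encodes initiation factor eIF1A of the scanning ribosome, had 12.1-fold and 14.5-fold on 87 and 78 IP reads, 60 and 52 nt from the transcript start. Eif2s1 and Eif2b2, subunits of eIF2 and of its exchange factor eIF2B, had 4.78-fold and 5.32-fold, and 5.49-fold and 4.89-fold, and the Eif2b2 summits lay 6 and 1 nt downstream of the start codon's first base. Eif5b, a factor of ribosomal subunit joining, had 4.07-fold and 5.20-fold, and Eif6, which keeps the large subunit apart from the small one, 3.79-fold and 4.05-fold on 145 and 148 IP reads with the printed GGAC 10 and 7 nt downstream. Eif4ebp1, a translational repressor that binds eIF4E, had 5.52-fold and 11.9-fold on 19 and 24 IP reads, and its summits were 79 nt apart on the transcript.

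Of 80 cytosolic ribosomal protein genes, 5 (6.25%) had a 5′ peak in both replicates, and these were all 5 of the list with any placed peak in both. Their ratios were low, at 1.65 to 4.69 in the first replicate and 1.49 to 4.20 in the second. Rpl34 had 4.69-fold and 3.95-fold on 57 IP reads in each replicate, its summits 3 nt before and 3 nt after the A of the printed GGAC. Rps24 had 4.20-fold and 3.79-fold, Rpl27 3.42-fold and 4.20-fold, and Rps7 2.88-fold and 2.53-fold. Rpl13 was lowest at 1.65-fold and 1.49-fold, on 96 and 99 IP reads with a background of 66 and 63 control reads. In 4 of the 5 genes the summits lay within 150 nt of the transcript start in both replicates.

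Of 20 genes of the m6A machinery, 6 had a 5′ peak in both replicates, or 46.2% of the 13 with a placed peak in both. None was a catalytic writer: Mettl3 and Mettl14 had no 5′ peak in either replicate. Ythdf3, a cytoplasmic reader, had 6.19-fold and 10.8-fold on only 16 and 15 IP reads, and stop codon peaks at 4.55-fold and 4.95-fold. Hnrnpc, an RNA-binding protein whose sites m6A can open, had 10.2-fold and 4.02-fold on 45 and 37 IP reads, its background being 4 and 8 control reads, and in replicate 1 another peak at 3.03-fold on 153 IP reads. Igf2bp1, a reader tied to mRNA stability, had 3.62-fold and 3.78-fold. Alkbh5, an m6A demethylase, had 2.91-fold and 6.03-fold on 68 and 75 IP reads, its background being 26 and 11 control reads. Rbm15, an adaptor of the writer complex, had a 5′ peak at 4.28-fold and 3.27-fold, 143 and 172 nt downstream of the start codon, and in replicate 2 another at 3.67-fold, 82 nt from the transcript start. The remaining gene was Hnrnpa2b1, given above.

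Of 40 hematopoietic transcription factor genes, 7 (17.5%) had a 5′ peak in both replicates, or 23.3% of the 30 with a placed peak in both. Their median of 2.56 and 3.03 was below that of all 1318 genes, and in none were the strongest summits within 150 nt of the transcript start in both replicates. The background was 6 and 4.60 control reads at Meis1, 7 and 5 at Spi1 and 14 in both replicates at Hoxa9. It was thicker at Lmo2, with 50 and 36, and at the Myc peak found in both replicates, with 77 and 58. The part of background in the low median was not tested. Spi1, which encodes PU.1 of myeloid and lymphoid cells, was highest at 8.01-fold and 8.10-fold, 116 and 141 nt upstream of the start codon of an 853-nt 5′ UTR. Meis1, a HOX cofactor of stem cells, had 6.73-fold and 5.11-fold with the printed GGAC 20 and 24 nt downstream of the summits. Hoxa9, a stem cell homeobox gene, had 4.08-fold and 3.05-fold at 60 and 78 nt downstream of its start codon. Klf1, the master factor of red cell genes, had 2.56-fold and 2.28-fold on 165 and 164 IP reads against a background of 73 and 68 control reads, and in replicate 2 a second 5′ peak at 3.03-fold on 69 IP reads. Lmo2, an adaptor of the stem cell factor complex, had 2.31-fold and 2.80-fold. Myc, a driver of growth, had a peak 169 nt upstream of the start codon in both replicates at 2.20-fold and 2.39-fold on 149 and 147 IP reads, and in replicate 1 a second at 2.43-fold on 146 IP reads.

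Among 17 growth factor receptor genes, 2 (11.8%) had a 5′ peak in both replicates, or 20% of the 10 with a placed peak in both. These were Csf2ra at 5.13-fold and 7.15-fold and Csf2rb at 3.74-fold and 5.99-fold, which encode the chains of the GM-CSF receptor. Among 45 genes of interferon, TNF and JAK-STAT signaling, 6 (13.3%) did, or 17.6% of those with a placed peak in both. Stat6, the transcription factor of IL-4 signaling, had 8.17-fold and 11.7-fold on 50 and 48 IP reads, 88 and 65 nt from the transcript start. Myd88, the adaptor of Toll-like receptors, had 7.18-fold and 5.63-fold at 24 and 34 nt downstream of the start codon. Irf1, an interferon regulatory factor, had 4.23-fold and 8.59-fold on only 18 and 17 IP reads, its background being 4 and 1 control reads. Nfkbib, an inhibitor of NF-κB, had 3.86-fold and 7.21-fold, Irgm1, an interferon-inducible GTPase, 4.08-fold and 3.66-fold, and Irf9, an interferon regulatory factor of the same family as Irf1, 4.16-fold and 3.62-fold.

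Of 27 immediate early and Krüppel-like factor genes, 5 (18.5%) had a 5′ peak in both replicates, or 26.3% of those with a placed peak in both, with a median of 5.95 and 9.07. Klf9 had 10.2-fold and 10.7-fold at 163 and 150 nt downstream of the start codon, with the printed GGAC 9 nt before the first summit and 4 nt after the second, and in replicate 1 another peak at 5.25-fold on 7 IP reads. Jun, a subunit of AP-1 encoded by 1 exon, had 5.48-fold and 9.72-fold on 129 and 97 IP reads. Its summits lay in a 951-nt 5′ UTR, 179 and 158 nt upstream of the start codon, and the peak itself was longer than that UTR. Ier5 had 8.67-fold and 6.37-fold and Klf16 5.95-fold and 9.07-fold. Fosb, another AP-1 subunit, had 5.40-fold and 6.36-fold, below its stop codon peak at 12.3-fold and 11.1-fold, the reverse of the order in most genes. Of 24 genes of the heat shock and stress list, 2 (8.33%) had a 5′ peak in both, or 28.6% of the 7 with a placed peak in both. Dnajb1, a co-chaperone of HSP70, had 5.42-fold and 7.03-fold at 3 and 13 nt from the first base of its start codon, where the printed sequence lies. Hsph1, an HSP110 chaperone, had 3.42-fold and 3.30-fold.

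Of 35 cyclin and cyclin-dependent kinase genes, inhibitors included, 7 had a 5′ peak in both replicates, or 36.8% of those with a placed peak in both. Ccnd2 and Ccnd1, cyclins of G1 phase, had 6.27-fold and 4.52-fold, and 4.28-fold and 8.58-fold, the latter on 22 and 26 IP reads. Cdkn1a, the p21 inhibitor, had 4.90-fold and 8.58-fold on 21 and 26 IP reads at 17 and 24 nt downstream of the start codon. Ccng1, a p53 target, had 5.77-fold and 6.04-fold, Cdk5 3.76-fold and 3.62-fold, and Cdkn2c, the p18 inhibitor, 3.75-fold and 2.86-fold with both summits 927 nt upstream of the start codon. Of 44 chromatin methylation genes, 7 (15.9%) did, or 20.6% of those with a placed peak. Tet3, a DNA demethylase, had 5.17-fold and 6.12-fold, 11 and 9 nt before the printed GGAC. Asxl2 and Asxl1, Polycomb-associated proteins, had 6.37-fold and 5.04-fold, and 3.52-fold and 5.15-fold. Kmt2e had 4.85-fold and 8.41-fold, and Kdm5a and Kdm5c, histone H3 lysine demethylases, 3.79-fold and 5.79-fold, and 3.96-fold and 3.33-fold.

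The large family of numbered Zfp zinc finger genes had a 5′ peak in both replicates in 35 of 391 genes (8.95%) against 6.03% of all protein-coding genes. Of the 276 with a placed peak in both it was 12.7%, against 21.3% of all genes with a placed peak in both, so the order depended on the base, and neither difference was tested. The median fold enrichment was 5.37 and 5.40. By the lower of its values Zfp52 was highest, at 13.7-fold and 11.4-fold on 27 and 23 IP reads, and Zfp710 followed at 9.40-fold and 10.3-fold on 79 and 96 IP reads. Zfp871 had 9-fold and 9.22-fold, Zfp449 8.51-fold and 9.55-fold on only 11 and 13 IP reads, Zfp420 7.53-fold and 14.3-fold, and Zfp758 7.64-fold and 7.38-fold. All of these except Zfp710 had fewer than 20 IP reads or 2 control reads in at least 1 replicate.

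**Figure D5:**
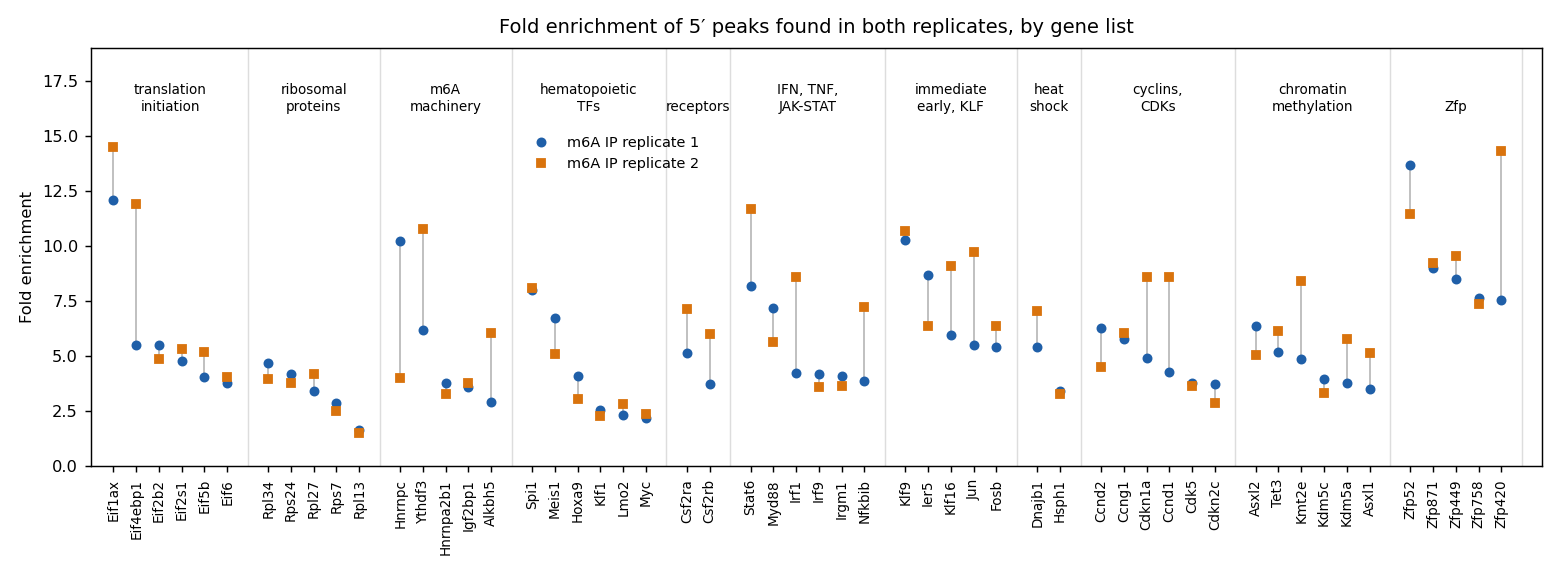
Fold enrichment (y axis) of the overlapping 5′ peak of each named gene of the 11 lists in replicate 1 (blue circles) and replicate 2 (orange squares), a line joining the values of a gene; Rbm15 and Zfp710, whose 5′ peaks had no such pair, are not drawn. Ribosomal protein genes lie between 1.49 and 4.69, and Eif1ax reaches 14.5.

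The labeled cell type was set against marker genes by the presence of any exonic peak in both replicates. This held for 5 of 7 progenitor markers, 3 of 5 erythroid, 1 of 4 hepatocyte, 2 of 4 macrophage and 1 of 3 endothelial markers. The share of all genes with any exonic peak in both replicates was not counted. By the narrower measure of a placed peak in both, it was 6196 of 21851 protein-coding genes. With so few markers per type, these counts do not identify the cells. Kit, the marker used for enrichment, had no exonic peak in either list, and a gene without a peak may lack the mark or the expression that makes a peak visible. Of the markers, Cd34, Lmo2, Klf1 and the globin gene Hbb-bt had 5′ peaks in both replicates.

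The values on either side of the 200-nt border of the start codon window are given as a description. Summits in the last 50 nt inside that border, counted as 5′ peaks, numbered 124 and 144, with a median fold enrichment of 4.31 and 4.42 and GGAC near 55.6% of summits in both replicates, and 85.5% and 84.7% were found again in the other replicate. Summits in the first 50 nt beyond it, counted as coding peaks, numbered 121 and 108, with a median of 3.82 and 4.12 and GGAC near 53.7% and 59.3%, and 84.3% and 90.7% were found again.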

How the data were processed

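m6A meRIP-seq peaks were analyzed from 1 deposited list per m6A IP replicate. Per the study's methods and the submitters' processing notes, reads were aligned to GRCm38 (mm10) with HISAT2 and peaks called by the authors with MACS2 2.1.1.20160309 and the nomodel flag, without pooling. The threshold, genome size and control library are not given in the sources used here. The deposited values are a score, the fold enrichment (a ratio of IP signal to local background at the summit, as MACS2 computed it for the authors), and the p-value and the q-value, both as −log10. In that ratio 1 is added to both the signal and the background, in scaled reads, so it is not the plain ratio of the reads given. The score was not used. Input samples were not analyzed here.

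Summits were placed on the GENCODE M21 basic transcript with the longest coding sequence of each of 21851 protein-coding genes, where they lay in no exon of another gene. IP and control reads at a summit were solved from the fold enrichment and p-value with the formulas of MACS2. A whole number of IP reads matched 100% of peaks within 0.001 in −log10 p, against 0.838% and 0.565% on a shifted grid. Library totals are unknown. The functions were checked on simulated data. Shares carry exact Clopper-Pearson intervals and differences of shares Newcombe intervals, at 95% (scipy 1.17.1, pandas 2.3.3, Python 3.11.15). A difference was called when both replicates' intervals lay on the same side of 0. Most placed peaks of each list overlapped a peak of the other list, so both intervals largely count the same sites and are not independent. Peaks of 1 library are not independent replicates, and the methods call the IP replicates biological without naming separate animals.

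Genes named were the 12 with the highest lower fold enrichment of both replicates and at least 20 IP and 2 control reads, the 5 nearest each kind of start, and list genes with a 5′ peak in both replicates, at most 6 per list by the lower fold enrichment. There a gene with several 5′ peaks was ranked by the one with the highest −log10 q, while medians over genes took the highest fold enrichment. Sequences were shown for 11 of the 22 named genes with GGAC within 25 nt of both summits, picked by position and list after their values were seen. 1 of the named genes is not reported here. The members and lists were chosen with earlier results of these data known. Alternatives covered thresholds, windows, the chosen transcript, overlap rules, motif settings and each replicate alone.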

Additional observations from a re-analysis of the deposited data

How the results depend on the processing

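Of 55 comparisons with another setting, 49 kept their value or call. Settings that left out 1 replicate could only be counted as kept, by the way the comparison was made, so they add no support to this count. The difference in GGAC share from other peaks and that between 5′ peaks near and far from the transcript start kept their direction and call in every setting, at -8.31 to -4.72 points and -13.8 to -5.14 points. Values that moved were the following. The share of placed summits that were 5′ peaks, 18.5%, was 24.97% among peaks of at least 4-fold enrichment, 15.9% with 100-nt windows around the codons and 21.6% with 400-nt windows, and lay between 18.2% and 18.9% with 1 replicate left out. The count of genes with a 5′ peak in both replicates fell from 1318 to 842 at 4-fold enrichment, by the construction of that setting. The difference in sharing, -14.9 points, shrank to -6.81 points when only summits within 100 bp of each other counted as shared. It is among the 49 because its call was kept, which depends on direction and interval and not on size. The following settings were chosen after seeing the data. The difference in median fold enrichment, 1.50, was 0.134 over 4 bands of background. The difference in sharing was -2.20 points among peaks narrower than 300 bp, where the replicates differed in sign (2.003 and -6.41 points), and the call was lost. With only summits at least 50 nt from the transcript start, where no motif window is shortened, the GGAC differences were -4.72 points from other peaks and -8.37 points between near and far 5′ peaks. With 1 replicate left out, the difference in sharing lay between -16.5 and -13.4 points, that in GGAC between -7.10 and -5.44, that between near and far 5′ peaks between -11.1 and -10.1, and that in median fold enrichment between 1.31 and 1.69. No paired analysis was possible because only the IP group's lists were used, so no replicate number was shared by 2 groups of samples. The comparisons called here were between classes of peaks within each replicate. A gene without a 5′ peak may have had too little coverage, since the median 5′ peak rested on 46 and 47 IP reads.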
